A study of Mus musculus with 3 samples.

Results

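The genes described here are 37 genes of the lysosome and of autophagy, measured in LT-HSCs, the long-term haematopoietic stem cells of the marrow, from mice with and without total body irradiation (TBI). They were taken by gene symbol from a fixed list covering the TFEB family of transcription factors, lysosomal membrane proteins and hydrolases, and the core autophagy machinery. All 37 were found, each as 1 probe set, among 23185 named genes. The LT-HSCs came from bone marrow of female C57Bl/6 mice aged 8 to 10 weeks, which were non-irradiated, or had received 8 Gy TBI either at CDR (read here as conventional dose rate, which the labels do not spell out) or as FLASH, an ultra-high dose rate. Per the labels, 10000 LT-HSCs were isolated 15 days after TBI, and total RNA was hybridised to Affymetrix arrays. Each of the 3 groups had 1 array. Neither the number of mice behind an array nor the sorting gate is given in the sources used here. No value below therefore has a replicate check or a test, and "higher" and "lower" describe these arrays.

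Lysosomes are acidic organelles in which hydrolases break down proteins, lipids, glycans and whole organelles. Autophagy delivers cytoplasmic cargo to them: the ULK1 kinase starts the process, a Beclin 1 lipid kinase complex and WIPI proteins mark the forming membrane, and a conjugation system of ATG proteins attaches ATG8 proteins (LC3 and GABARAP) to it. TFEB, TFE3 and MITF are related transcription factors that bind E-box motifs near many lysosomal and autophagy genes and enter the nucleus when the mTORC1 kinase at the lysosome is inactive. In haematopoietic stem cells autophagy removes active mitochondria and helps keep cells quiescent, and FOXO3 is known to keep a set of autophagy genes ready for expression under stress.

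Promoter sequence was read for E-box and forkhead motifs. The choice of genes did not use it directly, but took lysosomal and autophagy genes, near many of which the TFEB family binds E-boxes. The E-box shares are therefore not independent of that choice and say nothing about these arrays. RefSeq promoter windows (GRCm38.p6; 250 bases before to 50 after an annotated start) were held for 30 of the 37 genes. The palindromic E-box CACGTG was present in a window of 11 of these 30, or 36.7%, against 8.09% of 27025 genes with a window. Its extended form TCACGTGA, every match of which also contains CACGTG, was present for 5 of 30, or 16.7%, against 1.12%. Member windows also had more G and C, with a median of 59.3% against 52.7% over all windows. The base pair step CG, which both E-box forms contain, had a median count of 15 per window against 7. No allowance was made for either. The forkhead core GTAAACA, read on both strands, was in the window of 0 of 30 genes, against 4.05%. A missing match says only that these letters are not in this window. The 11 genes with CACGTG were Atg3, Atg5, Atg7, Ctsa, Ctsd, Ctsl, Gaa, Gla, Glb1, Lamp1 and Mcoln1. Atg12, Atg16l1, Becn1, Ctsb, Ctsh, Map1lc3a and Npc1 had no entry in the table.

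The 250 bases before the start are shown, in the direction of transcription, for 4 genes with CACGTG, which is in capitals. They are Mcoln1 (chr8:3500269-3500518, plus strand), Lamp1 (chr8:13158911-13159160, plus strand), Ctsd (chr7:142387828-142388077, minus strand) and Gla (chrX:134601006-134601255, minus strand). Lamp1 holds 4 E-boxes, starting 61, 45, 28 and 15 bases before its start, and each of the others holds 2.
Mcoln1: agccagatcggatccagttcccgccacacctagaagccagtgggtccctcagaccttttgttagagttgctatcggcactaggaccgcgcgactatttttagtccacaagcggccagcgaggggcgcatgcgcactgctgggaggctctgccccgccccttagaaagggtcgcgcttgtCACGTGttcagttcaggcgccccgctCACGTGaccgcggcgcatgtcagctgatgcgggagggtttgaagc
Lamp1: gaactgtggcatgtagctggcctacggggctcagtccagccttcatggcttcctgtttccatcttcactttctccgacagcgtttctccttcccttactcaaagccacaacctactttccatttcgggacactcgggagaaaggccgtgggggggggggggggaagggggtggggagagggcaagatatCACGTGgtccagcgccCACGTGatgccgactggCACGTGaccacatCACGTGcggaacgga
Ctsd: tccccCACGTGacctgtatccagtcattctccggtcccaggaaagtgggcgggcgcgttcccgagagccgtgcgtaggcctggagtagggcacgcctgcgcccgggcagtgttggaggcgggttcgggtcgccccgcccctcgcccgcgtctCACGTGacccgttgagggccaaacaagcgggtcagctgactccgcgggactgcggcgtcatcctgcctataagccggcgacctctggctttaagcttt
Gla: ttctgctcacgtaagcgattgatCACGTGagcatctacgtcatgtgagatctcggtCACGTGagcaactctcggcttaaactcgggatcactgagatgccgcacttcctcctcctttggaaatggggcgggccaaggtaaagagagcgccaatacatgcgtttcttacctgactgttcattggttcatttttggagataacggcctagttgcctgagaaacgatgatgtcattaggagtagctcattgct

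The same stretch is shown for the 3 members that passed 1.5-fold on an irradiated array, none of which holds CACGTG there. They are Ctsz (chr2:174439040-174439289, minus strand), Map1lc3b (chr8:121590188-121590437, plus strand) and Gabarapl1 (chr6:129532942-129533191, plus strand). These 7 promoters were chosen after the values had been seen.
Ctsz: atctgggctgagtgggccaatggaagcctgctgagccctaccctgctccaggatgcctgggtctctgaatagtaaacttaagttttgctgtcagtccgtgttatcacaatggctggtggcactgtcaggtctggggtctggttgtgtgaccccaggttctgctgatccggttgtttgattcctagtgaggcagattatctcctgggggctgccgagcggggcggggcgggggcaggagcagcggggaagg
Map1lc3b: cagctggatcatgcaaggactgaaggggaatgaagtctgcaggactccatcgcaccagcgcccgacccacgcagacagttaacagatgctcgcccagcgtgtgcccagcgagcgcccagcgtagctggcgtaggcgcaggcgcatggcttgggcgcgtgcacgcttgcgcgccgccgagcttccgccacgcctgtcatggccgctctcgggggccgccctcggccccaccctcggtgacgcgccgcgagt
Gabarapl1: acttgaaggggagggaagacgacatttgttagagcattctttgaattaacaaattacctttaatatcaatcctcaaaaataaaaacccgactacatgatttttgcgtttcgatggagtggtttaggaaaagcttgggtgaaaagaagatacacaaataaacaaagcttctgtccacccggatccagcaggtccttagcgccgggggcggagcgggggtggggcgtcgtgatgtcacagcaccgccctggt

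Values are the authors' processed log2 levels, and differences between arrays are taken on this scale. In each comparison a gene counted as detected if its higher reading exceeded the detection level of that array. This was the 95th percentile of 1368 genes for olfactory, vomeronasal and trace amine receptors, taken here as mostly silent in these cells. The level was 4.15, 4.16 and 4.21 on the non-irradiated, CDR and FLASH arrays. All 37 members were above it on all 3 arrays, as were 56.4% to 57.4% of named genes. The deposited table holds many exact ties: 7 of the 37 members (18.9%) had the same value on all 3 arrays, against 27.1% of 13518 genes detected in a comparison. Another 8 members had 1 pair of arrays tied and 22 had no tie. A difference of 0 in this table is such an exact tie.

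**Figure D1:**
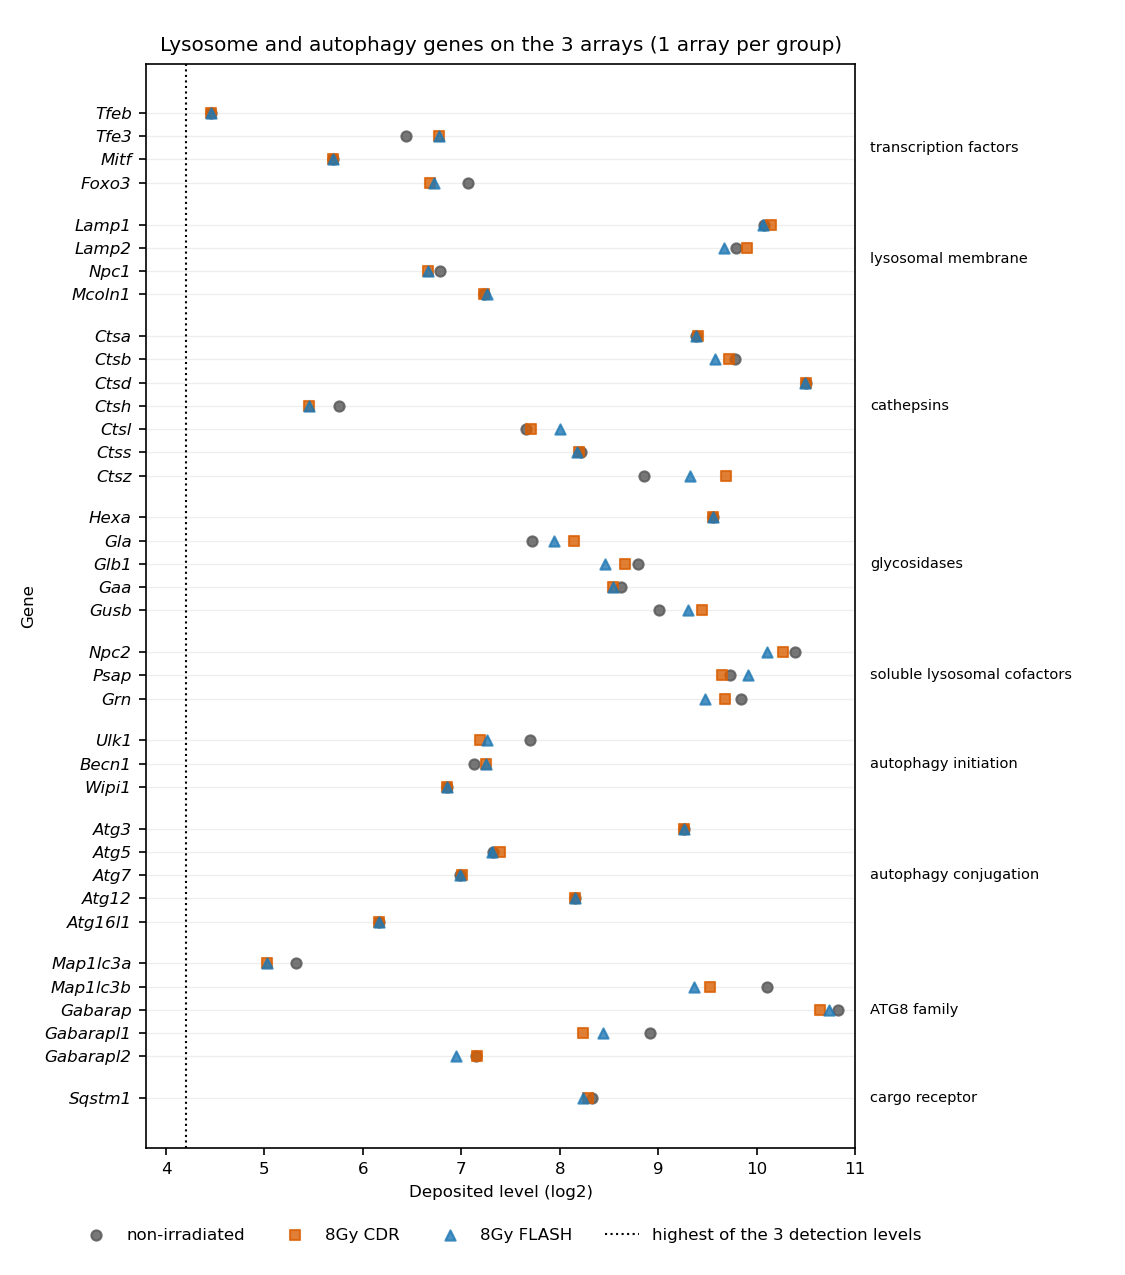
Deposited log2 level (horizontal axis) of each of the 37 genes (vertical axis, by role) on the non-irradiated (circle), 8Gy CDR (square) and 8Gy FLASH (triangle) arrays, 1 array per group; the dotted line is the highest detection level, 4.21. All points lie to its right, and for 7 genes the 3 symbols coincide. Levels of different genes come from different probes and are not to be compared.

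As a group, the 37 genes differed little from the non-irradiated array, and no member reached 2-fold on either irradiated array. On the CDR array 12 members were higher, 16 lower and 9 equal, with a median log2 difference of 0.00, the same as the median over 13448 detected genes. The FLASH array had 8 higher, 20 lower and 9 equal, with a median of -0.01 against 0.00 over 13296 detected genes. Both irradiated arrays are set against the same non-irradiated array, so their differences are not independent. Lower members made up 43.2% on CDR and 54.1% on FLASH, against 30.4% and 32.9% of detected genes. Ties count in these shares, and members were tied less often: 24.3% were equal in each comparison, against 34.9% and 33.2%. The detected genes were not matched to the members on level. After centring each array on its median over named genes, which gives every exact tie a sign, 23 members were higher and 14 lower on CDR, and 20 higher and 17 lower on FLASH. Quantile normalisation gave 16 higher and 21 lower on CDR and 13 and 24 on FLASH, and cyclic loess 13 and 24, and 12 and 25. Lower members thus made up 37.8%, 56.8% and 64.9% on CDR under these scalings, against 25.4%, 39.4% and 48.1% of detected genes. On FLASH they made up 45.9%, 64.9% and 67.6%, against 30.4%, 40.7% and 44.5%. The shares of detected genes past 2-fold were 0.766% upward and 2.36% downward on CDR, and 1.17% and 1.75% on FLASH, so that 0 of 37 lies near the background.

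At 1.5-fold, 1 member was higher on the CDR array (Ctsz), where 3.2% of detected genes were, and 1 was lower (Gabarapl1), where 5.38% were. On the FLASH array 0 members were at least 1.5-fold higher, against 3.6%, and 1 was lower (Map1lc3b), against 5.29%. Map1lc3b on the CDR array, at 1.49-fold lower, lay just short of this threshold. Thresholds of 1.3-fold and 1.2-fold were added after seeing the data. At 1.3-fold, 3 members (8.11%) were higher and 4 (10.8%) lower on CDR, where the background was 7.53% and 9.3%, and 1 (2.7%) was higher and 3 (8.11%) lower on FLASH, against 7.89% and 9.75%. At 1.2-fold, 4 members (10.8%) were higher and 6 (16.2%) lower on CDR, where the background was 12.8% in each direction. FLASH had 4 (10.8%) higher, against 12.7%, and 9 (24.3%) lower, against 13.8%. In this last count the members' share was above the background, and at 1.3-fold and 1.5-fold it was not. The other shares are near those of all detected genes and are not a result about the group.

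**Figure D2:**
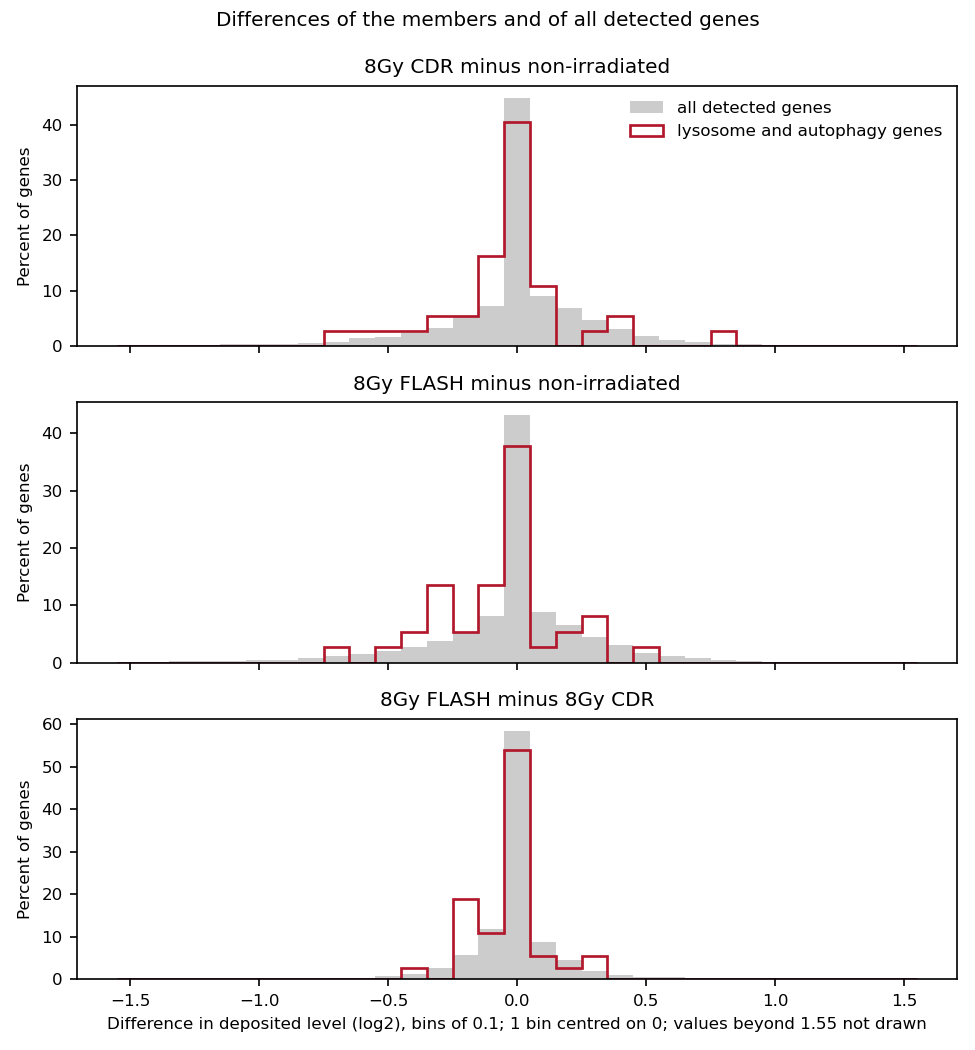
Percent of genes (vertical axis) by log2 difference (horizontal axis, bins of 0.1) for all detected genes (grey) and the 37 members (red outline) in the 3 comparisons. The members stay between -0.74 and 0.82 in every panel, and the bin around 0 is the tallest for both sets.

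Among the transcription factors, Tfe3 was higher and Foxo3 lower on both irradiated arrays. Tfeb, whose product is the main activator of lysosomal genes, read 4.46 on all 3 arrays, close to the detection level. Mitf, a relative best known from pigment and mast cells, read 5.70 on all 3. Tfe3, the third of the family here, read 6.44 on the non-irradiated array and 6.78 on both the CDR and the FLASH array. The difference of 0.34 was 1.26-fold, and 9.12% of detected genes had one as high or higher on the CDR array. Foxo3, the forkhead factor of stem cell quiescence, read 7.07 non-irradiated, 6.68 on CDR and 6.72 on FLASH. Its differences were -0.39 (1.31-fold) and -0.35 (1.27-fold), both irradiated arrays being lower and close to each other.

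Differences of the lysosomal membrane genes from the non-irradiated array ran from -0.12 to 0.11. Lamp1, a major glycoprotein of the lysosomal membrane, read 10.07 non-irradiated, 10.14 on CDR and 10.06 on FLASH. Lamp2, which also serves chaperone-mediated autophagy and the fusion of autophagosomes, read 9.79, 9.90 and 9.67 in that order, highest on CDR and lowest on FLASH. Npc1, the membrane exporter of lysosomal cholesterol, differed by -0.12 on CDR and -0.11 on FLASH. Mcoln1, the calcium channel TRPML1, read 7.23 on the non-irradiated and CDR arrays and 7.27 on FLASH.

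Cathepsins, the proteases of the lysosome, did not move together. Ctsz, a carboxypeptidase, showed the largest positive difference among the 37 genes. It read 8.86 on the non-irradiated array, 9.68 on CDR and 9.33 on FLASH, both irradiated arrays being higher and CDR the higher of them. The differences were 0.82 (1.77-fold) on CDR, where 1.38% of detected genes were as high or higher, and 0.47 (1.38-fold) on FLASH, where 5.38% were. Ctsl, cathepsin L, was highest on FLASH: it read 7.66 non-irradiated, 7.70 on CDR and 8.00 on FLASH, a difference of 0.34 (1.27-fold) from the non-irradiated array. Ctsh, an aminopeptidase, read 5.75 non-irradiated and 5.46 on both irradiated arrays, a difference of -0.30 (1.23-fold lower).

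The other cathepsin genes differed less. Ctsb, cathepsin B, was at -0.07 on CDR and -0.20 on FLASH. Ctsd, the main aspartic protease of lysosomes, read 10.50, 10.50 and 10.49 on the non-irradiated, CDR and FLASH arrays. Ctss, the cathepsin that trims the invariant chain in antigen-presenting cells, read 8.22, 8.20 and 8.18. Ctsa, the protective protein of the sialidase and beta-galactosidase complex, differed by 0.02 on CDR and was equal on FLASH.

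Of the glycosidases, Gusb and Gla were higher and Glb1 lower on both irradiated arrays. Gusb, beta-glucuronidase, read 9.01 non-irradiated, 9.45 on CDR and 9.31 on FLASH, differences of 0.44 (1.36-fold) and 0.30 (1.23-fold). Gla, alpha-galactosidase A, read 7.72, 8.15 and 7.94, differences of 0.43 (1.34-fold) and 0.22 (1.17-fold). In both genes the CDR array was the highest of the 3. Glb1, the beta-galactosidase used as a senescence marker at the protein level, read 8.79, 8.66 and 8.46, differences of -0.13 and -0.33 (1.26-fold lower on FLASH). Gaa, which degrades lysosomal glycogen, was at -0.08 on CDR and -0.09 on FLASH. Hexa, the alpha subunit of beta-hexosaminidase, read 9.56 on all 3 arrays.

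Soluble cofactors were lower on the irradiated arrays except for Psap on FLASH. Grn, progranulin, read 9.84 non-irradiated, 9.68 on CDR and 9.47 on FLASH, differences of -0.16 and -0.37 (1.29-fold lower on FLASH). Npc2, the soluble cholesterol carrier that works with NPC1, read 10.39, 10.27 and 10.11, differences of -0.11 and -0.28. Both genes were thus lowest on FLASH. Psap, the precursor of the saposins that present sphingolipids to their hydrolases, read 9.73, 9.65 and 9.92, lowest on CDR and highest on FLASH.

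Among autophagy initiation genes, Ulk1 was lower on both irradiated arrays. It read 7.70 non-irradiated, 7.19 on CDR and 7.26 on FLASH, differences of -0.51 (1.42-fold) and -0.44 (1.35-fold). Detected genes as low or lower made up 6.52% on CDR and 8.24% on FLASH. Becn1, the scaffold of the class III PI3-kinase complex, was 0.12 higher on both irradiated arrays, which tied. Wipi1, a reader of the lipid this kinase makes, read 6.86 on all 3 arrays.

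The conjugation machinery was nearly level on all 3 arrays. Atg3, the E2-like enzyme that transfers ATG8 proteins to lipid, read 9.26 on each array, Atg12, the ubiquitin-like partner of ATG5, 8.15 on each, and Atg16l1, which places the complex on the membrane, 6.17 on each. Atg5 differed by 0.07 on CDR and -0.01 on FLASH. Atg7, the E1-like enzyme that activates both ubiquitin-like systems, differed by 0.03 on CDR and was equal on FLASH.

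The ATG8 family, the small proteins attached to the autophagosome membrane, held the largest negative differences among the 37 genes. Of its 5 genes, 4 were lower on CDR and 5 on FLASH, with a median of -0.29 in each comparison, against a median of 0.00 over all detected genes, of which 30.4% and 32.9% were lower. Map1lc3b, LC3B, read 10.11 non-irradiated, 9.53 on CDR and 9.36 on FLASH. The differences were -0.58 (1.49-fold) and -0.74 (1.67-fold), and 5.55% and 3.34% of detected genes were as low or lower. Gabarapl1 read 8.92, 8.24 and 8.44, differences of -0.68 (1.6-fold) and -0.48 (1.4-fold), with 4.16% and 7.18% of detected genes as low or lower. Both genes were lower on both irradiated arrays, Map1lc3b lowest on FLASH and Gabarapl1 lowest on CDR.

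Map1lc3a, LC3A, read 5.32 non-irradiated and 5.03 on both irradiated arrays, a difference of -0.29 (1.22-fold lower). This dim gene supplied the family median in both comparisons. With an offset of 32 before the log, its difference was -0.15 on each irradiated array. Gabarap read 10.82, 10.65 and 10.74, differences of -0.18 and -0.09. Gabarapl2 read 7.15 on the non-irradiated and 7.16 on the CDR array, and 6.94 on FLASH, a difference of -0.20. Members of this family resemble each other in sequence, so that probes may share signal between copies. Sqstm1, p62, the receptor that ties ubiquitinated cargo to LC3, differed by -0.04 on CDR and -0.09 on FLASH.

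**Figure D3:**
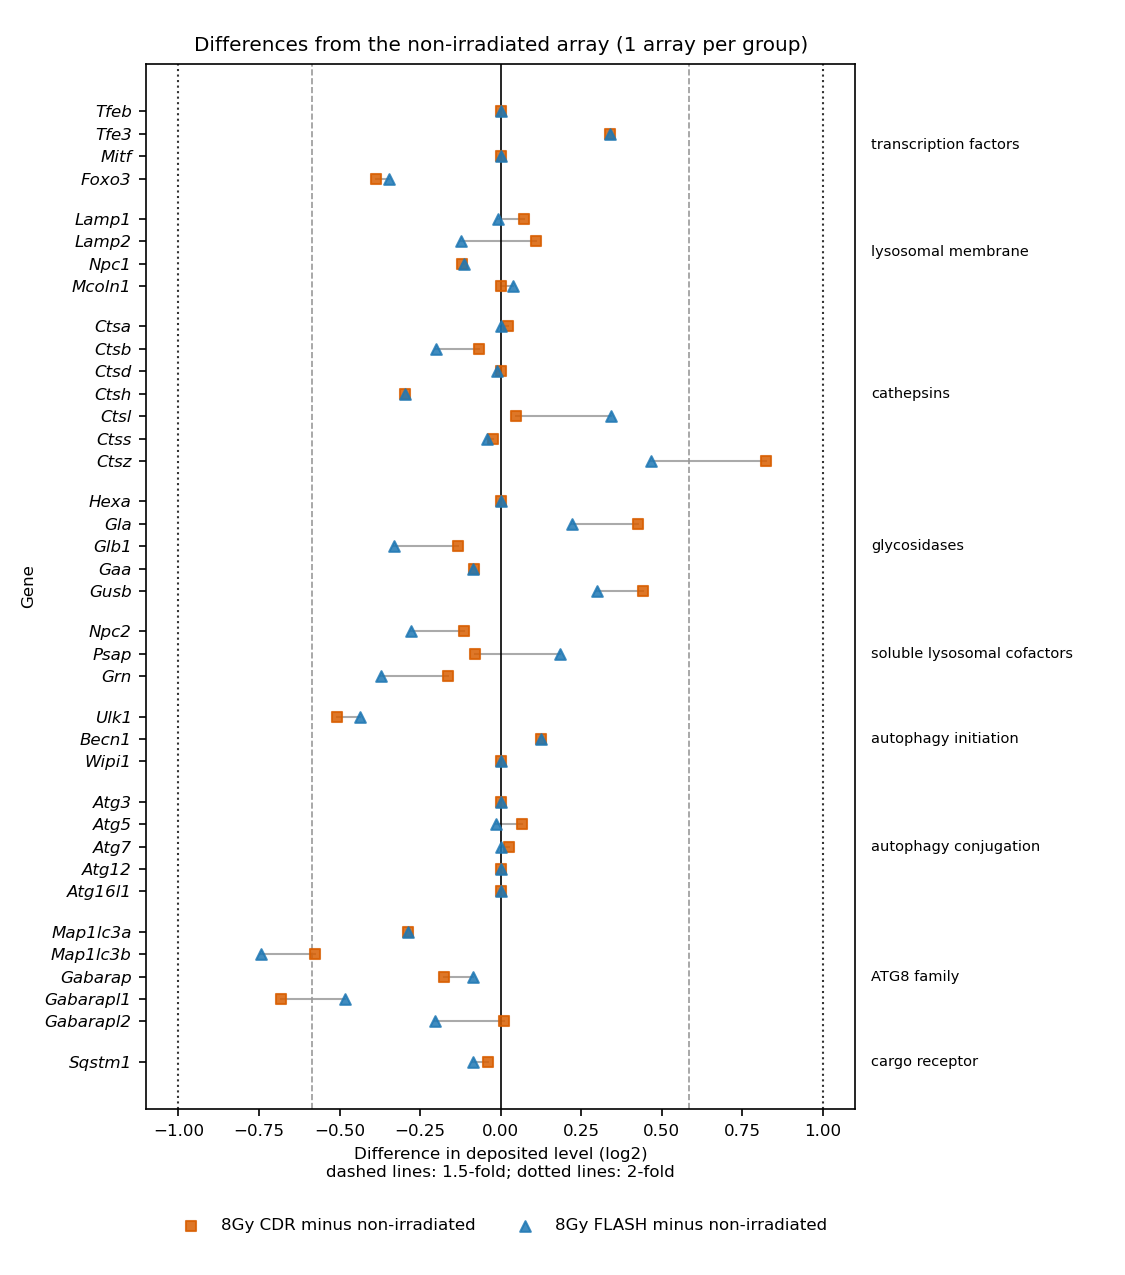
Log2 difference from the non-irradiated array (horizontal axis) for each of the 37 genes (vertical axis, by role) on the 8Gy CDR (square) and 8Gy FLASH (triangle) arrays, 1 array per group, with dashed lines at 1.5-fold and dotted lines at 2-fold. Ctsz lies farthest right, at 0.82 on CDR, and Map1lc3b farthest left, at -0.74 on FLASH; no point reaches a dotted line.

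Set by promoter, the 11 genes with CACGTG had median differences of 0.02 on CDR and 0.00 on FLASH, and the 19 genes with a window and without it -0.02 and -0.09. Within the 11, differences ran from -0.13 (Glb1) to 0.43 (Gla) on CDR and from -0.33 (Glb1) to 0.34 (Ctsl) on FLASH. These values are descriptions with no test of the difference between the sets.

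The FLASH and CDR arrays were also compared directly, at equal dose. With 1 array each, dose rate cannot be told apart from other differences between the samples, such as cell make-up. Differences of the 37 genes were small: 8 were higher on FLASH, 18 lower and 11 equal, with a median of 0.00, as over 13192 detected genes. The members' shares were 21.6% higher and 48.6% lower, against 25.7% and 31.9% of detected genes. Equal were 29.7% of members and 42.4% of detected genes. Lower members numbered 30 after centring, 25 after quantile normalisation and 18 after cyclic loess, or 81.1%, 67.6% and 48.6%, against 79.3%, 61.9% and 43.8% of detected genes. No member reached 1.5-fold, where 1.85% of detected genes were higher and 0.781% lower, nor 2-fold, where 0.849% and 0.144% were. At 1.3-fold the background was 3.21% upward and 2.4% downward, and 0 members passed it. At 1.2-fold, 2 members were higher, against 5.1%, and 1 was lower, against 4.95%. The lower one was Ctsz, at -0.36 (1.28-fold). The higher ones were Ctsl at 0.29 and Psap at 0.27, with 4.44% and 5% of detected genes as high or higher. Lamp2 differed by -0.23, Gabarapl2 by -0.22, and Grn and Gla each by -0.21.

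Other genes of the pathway were read in 6 lists. The counts below stand against 34.7% of detected genes higher and 30.4% lower on CDR, and 33.8% and 32.9% on FLASH. Past 1.2-fold in either direction were 25.6% of detected genes on CDR and 26.6% on FLASH. The V-ATPase genes encode subunits of the pump that acidifies the lysosome. Of 16 detected, 5 were higher on CDR and 4 lower, and 5 each on FLASH, with 1 gene past 1.2-fold, on CDR. Tcirg1, a subunit best known from osteoclasts, was that gene, at 0.28 on CDR and 0.16 on FLASH, and Atp6v1g1 was the lowest at -0.14 and -0.16. Further autophagy initiation genes held no gene past 1.2-fold among 18 detected, with 7 lower and 2 higher on CDR and 8 lower and 3 higher on FLASH. Ulk2, the close relative of Ulk1, was at -0.24 on both arrays and Atg2b, a lipid transfer protein, at 0.16 and 0.17.

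Further lysosomal hydrolases leaned lower. Of 28 detected, 13 were lower and 6 higher on CDR and 17 lower and 4 higher on FLASH, with medians of 0.00 and -0.10. The lower ones made up 46.4% and 60.7%, against 30.4% and 32.9% of all detected genes. At 1.5-fold, 3 of 28 (10.7%) were lower on each array and 0 higher, against 5.38% and 5.29% of detected genes lower. Ctsf, cathepsin F, differed more than any of the 37 genes: it read 6.18 non-irradiated, 4.22 on CDR and 4.31 on FLASH, and was 3.91-fold and 3.66-fold lower. Both irradiated values lay just above the detection level. Ctso, cathepsin O, read 7.86, 6.89 and 7.14, differences of -0.97 and -0.72. Scpep1, a serine carboxypeptidase, read 7.09, 6.65 and 6.18 and was lowest on FLASH, at -0.91. The sialidase gene Neu1 was the highest of the list on both arrays, at 0.26 and 0.23.

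Further membrane and sorting genes pointed both ways on CDR, with 10 higher and 10 lower of 26 and a median of 0.00. On FLASH they leaned lower, with 5 higher and 14 lower and a median of -0.06. The lower ones there made up 53.8%, against 32.9% of detected genes. Slc11a2, the iron transporter DMT1, read 6.77 non-irradiated, 7.43 on CDR and 7.32 on FLASH, differences of 0.65 and 0.54. Tpcn1, an endolysosomal cation channel, was at 0.40 and 0.30, and Laptm4a at -0.47 and -0.41. Of further conjugation, cargo and fusion genes, 7 of 21 were lower and 5 higher on CDR and 9 lower and 3 higher on FLASH. Atg10, the E2-like enzyme for ATG12, read 6.52, 6.17 and 5.59, differences of -0.35 and -0.93 (1.91-fold lower on FLASH). Bnip3l, the mitophagy receptor NIX, read 9.09, 8.78 and 8.65, lower on both irradiated arrays and at -0.45 on FLASH.

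Nutrient signalling genes at the lysosome had a median difference of 0.00 in both comparisons. Of 25 detected, 2 passed 2-fold downward on CDR and 1 on FLASH, or 8% and 4%, against 2.36% and 1.75% of detected genes. Prkaa2, the alpha 2 catalytic subunit of the energy sensor AMPK, read 5.43 non-irradiated and was under the detection level on both irradiated arrays, so that it was at least 2.42-fold lower on CDR and at least 2.34-fold lower on FLASH. Prkaa1, the alpha 1 subunit, read 7.62 non-irradiated, 8.24 on CDR and 8.02 on FLASH, 0.62 higher on CDR. Sesn3, sestrin 3, an inhibitor of mTORC1 signalling and a known FOXO target, read 7.44, 6.35 and 6.51, differences of -1.09 and -0.93. Lamtor3, a subunit of the scaffold that anchors mTORC1 signalling to the lysosome, was 0.28 higher on CDR and 0.48 on FLASH.

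**Figure D4:**
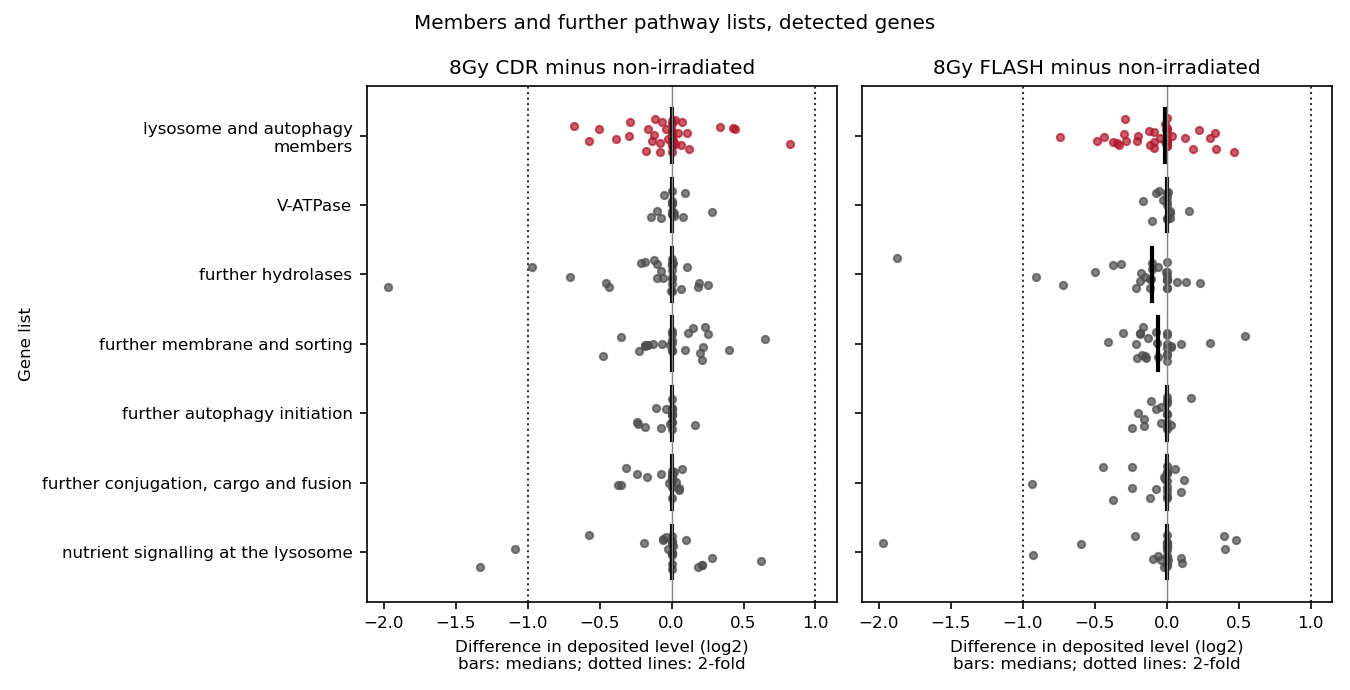
Log2 difference from the non-irradiated array (horizontal axis) of the detected genes of each list (vertical axis), for the 8Gy CDR array (left) and the 8Gy FLASH array (right), 1 array per group; each point is a gene, bars are medians, dotted lines 2-fold, and vertical scatter within a list only separates points. The members (red) lie within 2-fold, and the points beyond it belong to further hydrolases (Ctsf) and nutrient signalling (Prkaa2 and, on CDR, Sesn3).

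Lysosomal genes are abundant in macrophages and dendritic cells, so markers of these cells and of LT-HSCs are given beside the members. In bulk samples fewer cells of a type and less RNA per cell cannot be told apart. All 10 measured LT-HSC markers were above the detection level on all 3 arrays, the dimmest being Fgd5 at 4.64, 4.47 and 4.35. The mean log2 level of the 10 was 7.69 non-irradiated, 6.80 on CDR and 6.96 on FLASH. On CDR 9 of the 10 were lower and 0 higher, and on FLASH 8 lower and 1 higher. Of detected genes, 30.4% and 32.9% were lower. Past 2-fold downward were 4 (40%) on CDR and 2 (20%) on FLASH, against 2.36% and 1.75%. Hlf was at -2.0 and -1.90, Pdzk1ip1 at -2.21 and -1.77, and Slamf1 at -0.02 and 0.11. Of 15 measured macrophage and monocyte markers, 13, 13 and 12 were above the detection level on the non-irradiated, CDR and FLASH arrays. Their mean log2 level was 5.73, 5.67 and 5.60 in that order, and their summed level on the linear scale was 3055, 3272 and 2256. The sum follows Ly6c2, a monocyte gene that read 11.08, 11.21 and 10.49. The macrophage genes Vsig4 and Cd5l were under the detection level on all 3 arrays and Adgre1, F4/80, stood at it, at 4.17 on each. Between FLASH and CDR, 4 of the 12 detected markers were higher, 4 lower and 4 equal, with a median of 0.00, from Csf1r at -1.01 to Mrc1 at 0.89.

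Several dendritic cell markers moved more. Of 12 measured, 9 were above the detection level on the non-irradiated and CDR arrays and 10 on FLASH, and their summed linear level was 1728, 2358 and 4725. The sum is led by H2-Ab1, which read 9.13, 9.45 and 10.37, and Cd74, which read 8.68, 9.15 and 10.43. Clec9a, a dead-cell receptor of type 1 dendritic cells, read 4.23, 5.18 and 6.38. Wdfy4 read 8.16, 8.16 and 8.15, and Batf3 4.62 on all 3 arrays. Itgae and Siglech were under the detection level on all 3 arrays. Erythroid markers had a mean level of 6.46, 7.64 and 7.90, and megakaryocyte markers 7.64, 7.15 and 7.22. Of 6 detected erythroid markers, 6 were higher on each irradiated array. Past 2-fold upward were 4 (66.7%) on CDR and 5 (83.3%) on FLASH, against 0.766% and 1.17% of detected genes. B and plasma cell markers had a mean of 6.22, 5.50 and 6.02. Granulocyte markers had a mean of 8.26, 7.93 and 7.98, and mast cell and basophil markers 7.12, 6.88 and 7.28. Both of these means cover opposite moves. Among granulocyte markers, Lcn2 read 6.97, 9.15 and 8.40, and S100a9 10.12, 7.87 and 8.81. The granule protein genes of this list read high on all 3 arrays, the non-irradiated one included. Mpo read 12.36, 12.52 and 12.45, Prtn3 11.38, 11.85 and 11.73, and Elane 11.03, 11.41 and 11.21. Of 9 detected granulocyte markers, 1 was past 2-fold upward and 3 downward on each irradiated array. Among mast cell and basophil markers, Tpsb2 read 3.89 (under the detection level), 5.89 and 6.81, and Prss34 9.25, 6.53 and 7.87. Of 6 detected, 1 was past 2-fold in each direction on each irradiated array. Between the FLASH and CDR arrays, Ctss differed by -0.02, Ctsl by 0.29 and Psap by 0.27. The part of any of these lists in the members' differences was not tested.

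**Figure D5:**
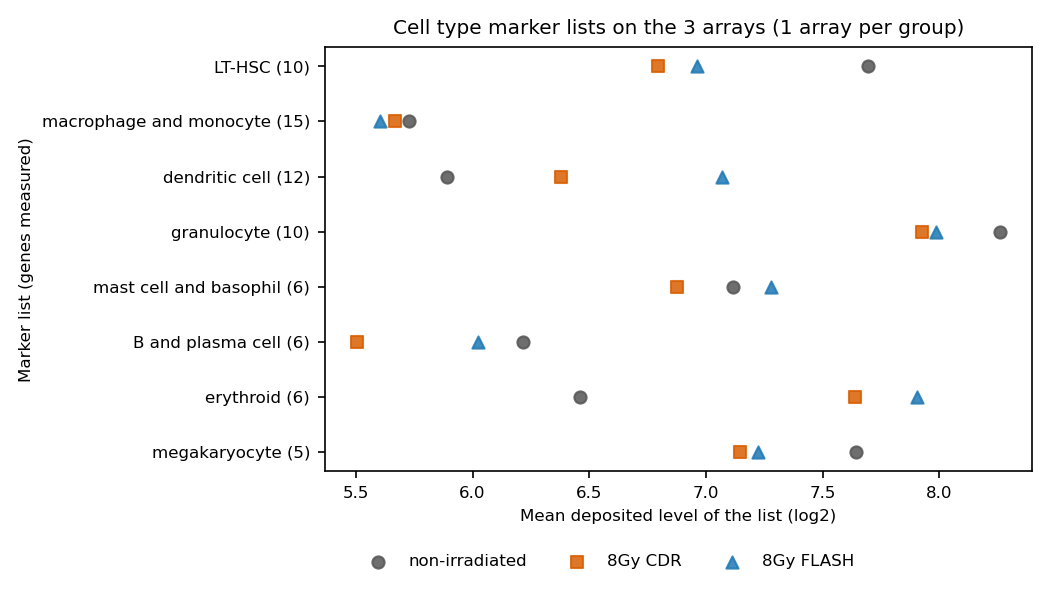
Mean deposited log2 level (horizontal axis) of each cell type marker list (vertical axis, number of genes measured in brackets) on the non-irradiated (circle), 8Gy CDR (square) and 8Gy FLASH (triangle) arrays, 1 array per group. LT-HSC markers are highest on the non-irradiated array at 7.69, and dendritic cell markers highest on FLASH at 7.07.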

How the data were processed

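Expression was measured on 3 Affymetrix arrays, 1 per group, grouped by sample title. The deposited table holds the authors' processed log2 level of each of 25206 probe sets. That scale was inferred from the values. Per the submitters' processing notes, Partek was used; how background, summarisation and normalisation were handled is not given in the sources used here. Among the probe sets, 23185 were named with 1 gene each by the platform's probe table, and the rest stayed unnamed. Of the genes of the pathway and marker lists, 13 were not matched there and are not analysed here. The members and lists were chosen with earlier results of these data known.

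Values were used as deposited. The text names all 37 members, up to 2 detected genes per direction and comparison of each further pathway list, and any marker. Alternatives were centring each array on its median over the 23185 genes with a symbol, quantile normalisation, cyclic loess by limma 3.58.1 under R 4.3.3, addition of an offset of 32 before the log, list means, fold thresholds of 1.5 and 3, no filter, a filter at the 99th percentile, and dim values raised to the detection level. Python 3.11.15, numpy 2.4.6, pandas 2.3.3 and matplotlib 3.10.9 were used. Simulated data tested only the 2-fold call, on large planted changes in genes well above the detection level and without exact ties. The smaller differences, list counts, scalings and promoter steps were not simulated. With 1 array per group no test was possible, and precision is limited by that number.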

Additional observations from a re-analysis of the deposited data

Results flagged for a closer look

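The results below were picked out because a gene lay above the non-irradiated array on one irradiated array and below it on the other. Lamp1 differed by 0.0715 on CDR and by -0.00769 on FLASH, Lamp2 by 0.108 and -0.124, Atg5 by 0.0671 and -0.0146, and Gabarapl2 by 0.0118 and -0.205. Psap went the other way, at -0.0804 on CDR and 0.186 on FLASH. After centring each array on its median, Lamp1 and Atg5 were above the non-irradiated array on FLASH too, at 0.0171 and 0.0102, so that their signs were no longer opposite; the other 3 genes kept opposite signs under centring. Each group had 1 array and both differences share the non-irradiated array, and the difference between the irradiated groups was not tested. Such opposite signs were seen for 5 of 37 members, 4 (10.8%) above on CDR and below on FLASH and 1 (2.7%) the reverse. Of 13518 genes detected in a comparison, 2.8% were above on CDR and below on FLASH, and 2.31% the reverse. A tied gene cannot have opposite signs, and 18.9% of members were tied on all 3 arrays, against 27.1% of detected genes.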

How the results depend on the processing

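No paired analysis was possible because each group had 1 array. The median differences of the 37 genes moved by less than 0.1 under every alternative run. Counts at 2-fold, 0 in each direction and comparison, were 0 under all 3 renormalisations, the offset, both filters, raised dim values and a 3-fold threshold. They changed with lower thresholds. At 1.5-fold, 1 gene was higher and 1 lower on CDR, and 1 lower on FLASH, each against non-irradiated. At 1.3-fold, added after seeing the data, 3 were higher and 4 lower on CDR and 1 higher and 3 lower on FLASH. At 1.2-fold, added likewise, 4 were higher and 6 lower on CDR, 4 higher and 9 lower on FLASH, and 2 higher and 1 lower on FLASH than on CDR. Of 111 single differences, none moved by 0.1 or more under centring, quantile normalisation or cyclic loess, and 4 did under the offset. These 4 were Ctsh and Map1lc3a, each on CDR and on FLASH. Shares of higher and lower genes depended on the scaling, since exact ties gained a sign: after centring, 23 members were higher and 14 lower on CDR, 20 and 17 on FLASH, and 7 and 30 between FLASH and CDR, after quantile normalisation 16 and 21, 13 and 24, and 12 and 25, and after cyclic loess 13 and 24, 12 and 25, and 19 and 18. Ctsz on CDR ran from 0.78 to 0.88, Gabarapl1 on CDR from -0.71 to -0.62 and Map1lc3b on FLASH from -0.77 to -0.72 over these scalings and the offset. Levels near detection, such as that of Tfeb, carry little range below them.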
